A study of Mus musculus with 25 samples.

Results

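Messenger RNA of 10 genes that move cholesterol out of cells, store it, carry it through the endosome or take it up with lipoproteins was followed in the mouse sciatic nerve. The genes are Abca1, Abcg1, Apoe, Apod, Npc1, Npc2, Lpl, Lrp1, Scarb1 and Soat1. They were chosen by name from the 56956 genes of the count table, with earlier results of these data known. Sciatic nerve RNA was sequenced as 25 libraries from mouse models of Charcot-Marie-Tooth disease type 1A (CMT1A), in which extra copies of the human PMP22 gene are carried on a yeast artificial chromosome. C3 mice (C57BL/6J) carry fewer copies than C22 mice (FVB/NRJ), and WT-C3 and WT-C22 are their wild-type controls on the same backgrounds, so copy number and strain cannot be told apart between the models. A further group, C3-PMP22 c-JunP0Cre, is C3 with a Schwann cell specific knockout of c-Jun driven by a P0 Cre, called C3 c-Jun KO below. Its genotype label gives no strain background, which could differ from that of C3. No group carries the Cre or the c-Jun deletion without PMP22. All mice were untreated, each group was sampled at 5 ages between 3 and 12 weeks (3, 5, 7, 9 and 12), and each library is 1 pool of several animals of both sexes.

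A myelinating Schwann cell needs much cholesterol for its membranes. Surplus cholesterol leaves cells through ABC transporters, mainly ABCA1 and ABCG1, onto apolipoproteins such as APOE, and the oxysterol-sensing LXR receptors are known to induce these genes. Lipoprotein cholesterol enters through lipoprotein receptors, is freed in the lysosome, leaves it through NPC2 and NPC1, and is stored as cholesteryl ester by SOAT1. In the peripheral nerve, APOE and APOD are known to be made in quantity after injury, when the lipid of broken-down myelin is reused.

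Because no group had a second pool at the same age, the libraries of the 5 ages were taken as the replicates of a group, and each SD and SE covers change with age as well as variation between pools. Depth ran from 2140142 to 49072746 fragments on genes (median 24663235), and the shallowest library, C3 at 9 weeks, still held 70 Soat1 fragments, the lowest count of any of the 10 genes in any library. All 10 genes passed the filter on low values. Jun, the gene that encodes c-Jun, stood at 51.3 to 72.4 normalised counts (CPM, counts scaled to library size with TMM factors) in WT-C3, 93.8 to 125 in C3 and 26.3 to 31.7 in C3 c-Jun KO, so each library of the knockout lay below each C3 library. Human PMP22 reached at most 6.40 CPM in the wild-type libraries and at least 7867 CPM in the transgenic ones. The myelin marker Mbp was abundant in every library. Whole-nerve RNA holds all cell types of the nerve, and fewer cells of a type and less RNA per cell cannot be told apart in it.

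The apolipoproteins were by far the most abundant of the 10 transcripts. Per kilobase of the canonical transcript, Apod averaged 798 to 1632 CPM per kb and Apoe 487 to 886 CPM per kb over the 5 groups, and this order held in each group. Lpl, the lipase of the capillary wall, came next with 83.6 to 295 CPM per kb. Npc2, Lrp1, Scarb1 and Npc1 lay between 31.7 and 95.0 CPM per kb, and the neighbours Lrp1 and Scarb1 did not differ beyond their spread (44.7 ± 3.15 and 46.8 ± 9.94 CPM per kb in WT-C3, SD, n = 5). Soat1 was the lowest in each group, at 3.49 to 5.51 CPM per kb. The 2 exporters changed places. Abca1 lay below Abcg1 in both controls (5.02 ± 0.823 against 10.0 ± 1.15 CPM per kb in WT-C3 and 6.79 ± 1.63 against 11.1 ± 0.642 in WT-C22), with no overlap of the libraries. In C3 the pair overlapped (10.2 ± 1.44 and 9.27 ± 1.66 CPM per kb), as in C22 (16.3 ± 0.804 and 13.7 ± 1.58), and the mean of Abca1 was the higher in both. Within a library, Abca1 was above Abcg1 per kilobase in each of C22 and in each of C3 but that of 9 weeks. With the length of all annotated exons in place of the canonical transcript the places of Apod, Apoe and Soat1 and the order of this pair stayed as they were, while Npc1 moved above Scarb1 in each group and Npc2, Lpl and Lrp1 changed places in WT-C3, C3 or both.

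**Figure D1:**
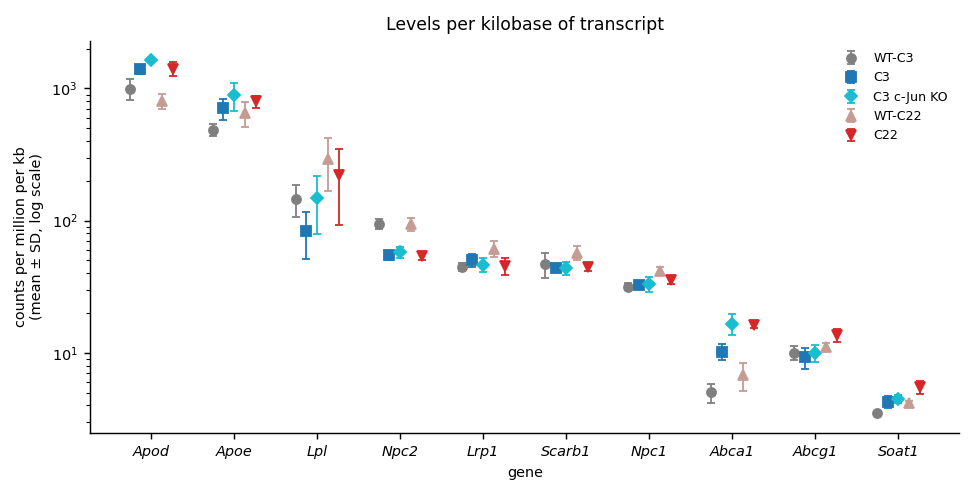
Mean level of each gene per kilobase of its canonical transcript (CPM per kb, log scale) in the 5 groups, with SD over the 5 ages. Apod and Apoe lie above all others and Soat1 lies lowest, and Abca1 lies below Abcg1 in WT-C3 and WT-C22 but not in the transgenic groups.

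In C3 nerves 4 of the 10 genes were higher than in WT-C3 (Abca1, Apoe, Apod and Soat1), 2 were lower (Npc2 and Lpl) and 4 did not pass the test. Of all 13993 genes tested, 23.9% passed in this comparison, 12.5% higher and 11.4% lower. In C22 nerves 4 genes were higher than in WT-C22 (Abca1, Abcg1, Apod and Soat1), 4 were lower (Npc2, Lrp1, Scarb1 and Npc1) and 2 did not pass, against a background of 42.4% of all genes, 21.9% higher and 20.5% lower. The median log2 fold change of the 10 genes was 0.09 in C3 and 0.02 in C22, beside 0.00 and 0.00 over all genes. All p-values in these comparisons come from the quasi-likelihood test of edgeR with Benjamini-Hochberg adjustment over all genes tested, and an adjusted p under 0.05 was called a change. With scaling by library size alone the median of all genes moved to 0.08 in C3 and 0.17 in C22, and the calls of Lpl in C3 and of Npc1, Lrp1 and Scarb1 in C22 were lost, while their direction stayed negative.

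**Figure D2:**
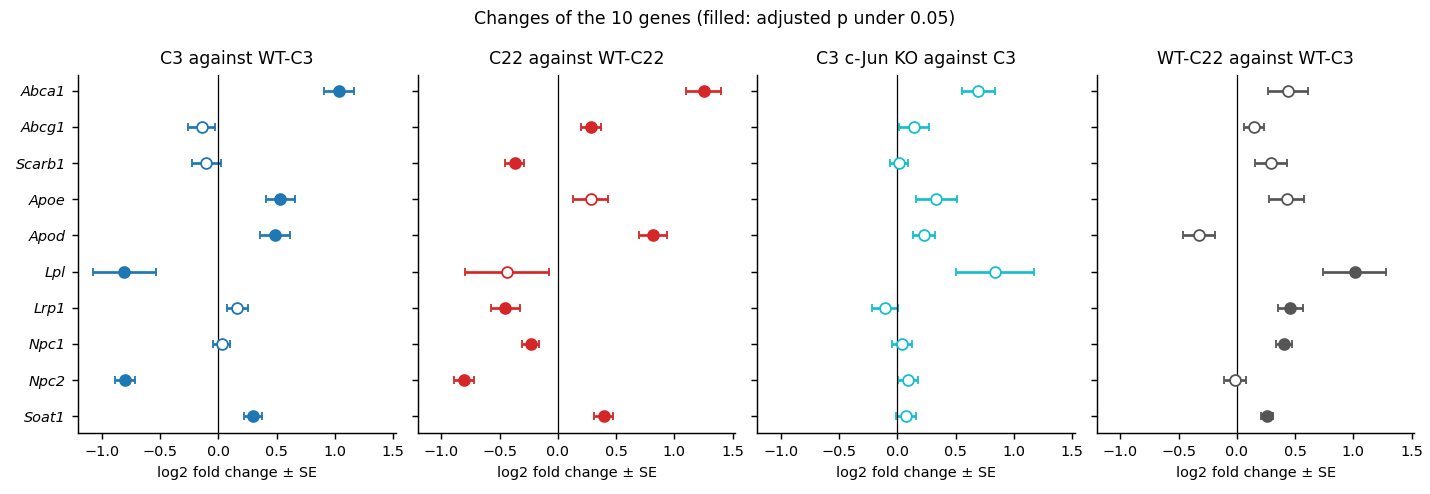
Log2 fold change of each gene in 4 comparisons, with its SE (n = 5 libraries per group). Filled points passed an adjusted p of 0.05. Abca1, Apod and Soat1 lie to the right and Npc2 to the left of 0 in both models.

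Abca1 encodes the transporter that loads cellular cholesterol and phospholipid onto lipid-poor apolipoproteins, and it showed the largest rise of the 10 genes in both models. From 3 to 12 weeks it stood at 38.0, 50.4, 60.7, 54.6 and 54.0 CPM in WT-C3 and at 127, 101, 100.5, 86.9 and 110.3 CPM in C3. In the other strain it stood at 48.8, 54.7, 82.3, 85.3 and 77.2 CPM in WT-C22 and at 167, 154, 175, 166 and 174 CPM in C22. Each transgenic library lay above each control library of its strain. Such separation was found for 17.5% of all genes in C3 (9.27% higher and 8.23% lower) and 30.6% in C22 (16.1% and 14.5%). The log2 fold change was 1.03 ± 0.13 (SE, n = 5 per group, adjusted p = 0.000366) in C3 and 1.25 ± 0.15 (SE, n = 5 per group, adjusted p = 5.33e-05) in C22, which are folds of 2.05 and 2.38. C22 was steady with age, with an SD of 8.26 CPM around a mean of 167, and the changes of the 2 models did not differ by the test (difference 0.20 ± 0.20 (SE, n = 5 per group, adjusted p = 0.614)).

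The windows around the start sites of Abca1 and of Npc2 are shown because these genes had the clearest shared rise and fall. Both are RefSeq promoter windows of 250 bases before and 50 after the start site, located by exact match in GRCm39: Abca1 on the minus strand at chr4:53159846-53160145 and Npc2 on the minus strand at chr12:84819837-84820136. Capitals mark a match to a relaxed LXR element, here 2 copies of GGTNA in the same direction with 5 bases between them, read on either strand.
Abca1: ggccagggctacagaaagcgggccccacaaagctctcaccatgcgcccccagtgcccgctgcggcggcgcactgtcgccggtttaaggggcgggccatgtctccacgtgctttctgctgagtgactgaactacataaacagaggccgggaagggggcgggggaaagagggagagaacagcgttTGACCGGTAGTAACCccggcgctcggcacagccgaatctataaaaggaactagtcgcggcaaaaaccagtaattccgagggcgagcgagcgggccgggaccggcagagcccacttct
Npc2: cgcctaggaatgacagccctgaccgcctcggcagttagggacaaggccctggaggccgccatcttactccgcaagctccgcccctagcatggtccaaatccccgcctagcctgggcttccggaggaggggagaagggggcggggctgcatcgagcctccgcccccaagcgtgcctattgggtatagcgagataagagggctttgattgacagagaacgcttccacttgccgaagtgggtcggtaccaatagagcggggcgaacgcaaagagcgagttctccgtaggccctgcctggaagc
The match in Abca1 begins 67 bases before the start site and lies on the strand opposite to the gene. Windows were found for 6 of the 10 genes (Abca1, Apod, Apoe, Lrp1, Npc2 and Soat1), and Abca1 alone held this element, which occurs in 236 of all 32851 windows or 0.718%. The core of the lysosomal CLEAR element, TCACGTGA, was in none of the 8 windows of these genes and in 0.974% of all windows, and the sterol regulatory element TCACCCCAC was in none of them and in 0.551% of all. A match describes letters and not a bound site.

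Abcg1, which moves cholesterol to lipidated particles, followed Abca1 in C22 but not in C3. Its level was 58.6, 66.2, 68.1, 67.2 and 65.3 CPM in WT-C22 and 68.9, 75.5, 90.6, 75.8 and 88.1 CPM in C22, again without overlap. This was a log2 fold change of 0.29 ± 0.09 (SE, n = 5 per group, adjusted p = 0.0181). In C3 the libraries overlapped (42.8 to 69.6 CPM against 49.7 to 66.5 CPM in WT-C3) and the log2 fold change was -0.14 ± 0.12 (SE, n = 5 per group, adjusted p = 0.407). The difference between the 2 changes was 0.41 ± 0.15 (SE, n = 5 per group, adjusted p = 0.0796) and passed with DESeq2 (adjusted p = 0.0364) and with scaling by library size alone (adjusted p = 0.0382). Scarb1, the receptor that exchanges cholesteryl ester with high-density lipoprotein, was lower in C22. It measured 162, 126, 138, 137 and 163 CPM in WT-C22 and 107, 113, 109, 127 and 109 CPM in C22, and the groups overlapped by a single pair, C22 at 9 weeks and WT-C22 at 5 weeks. Its log2 fold change was -0.37 ± 0.08 (SE, n = 5 per group, adjusted p = 0.00366) in C22 and -0.10 ± 0.13 (SE, n = 5 per group, adjusted p = 0.584) in C3. With scaling by library size alone the C22 value was -0.20 (adjusted p = 0.0764).

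**Figure D3:**
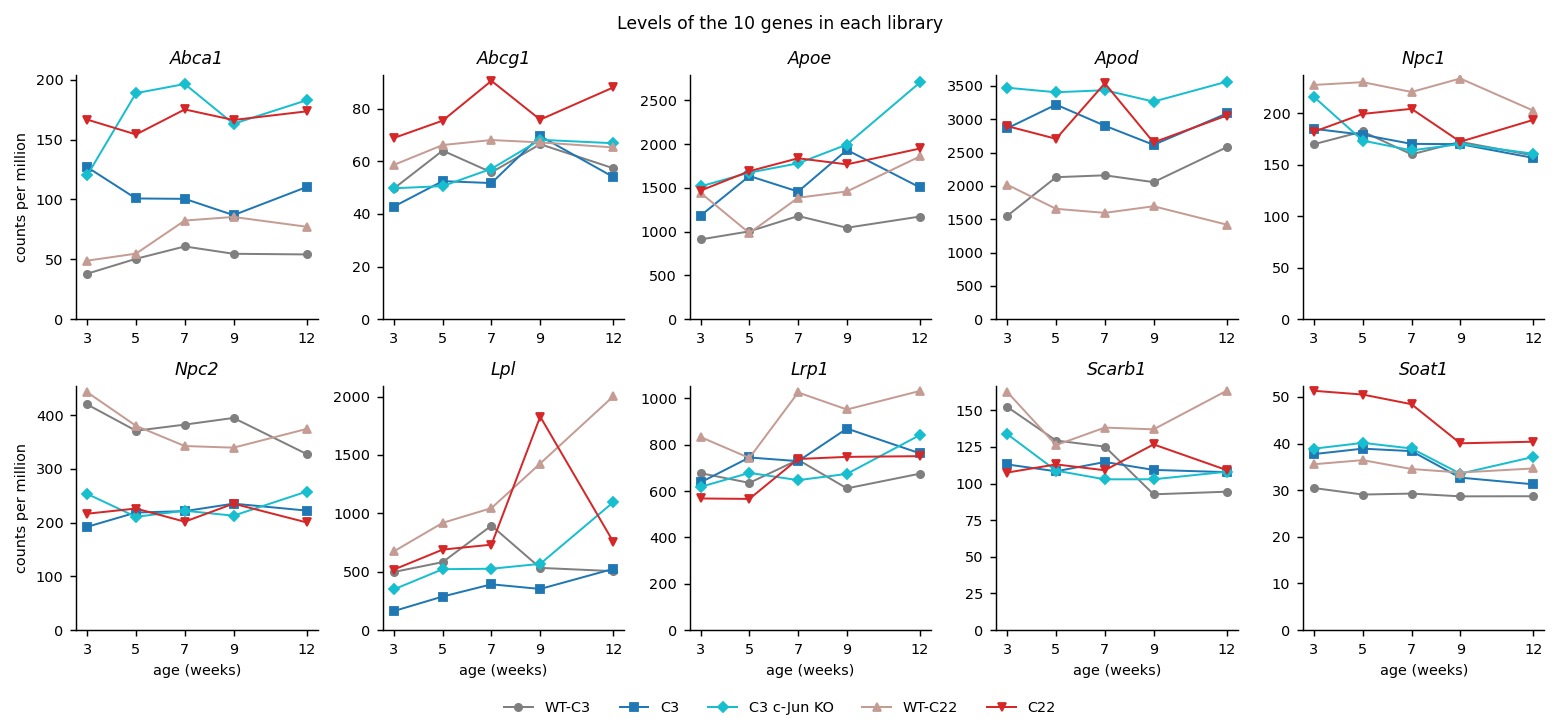
Level of each gene in each of the 25 libraries (CPM) against age in weeks, with 1 line per group and 1 pool per point. Abca1 and Apod of the transgenic groups lie above their controls at each age and Npc2 lies below them at each age, while Lpl varies most within groups.

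Apod and Apoe encode secreted lipid carriers, the first a lipocalin and the second an apolipoprotein of lipoprotein particles. Apod stood at 1550.5, 2130.2, 2159, 2056 and 2580.5 CPM in WT-C3 and 2864, 3219, 2903, 2616 and 3086 CPM in C3. In the FVB/NRJ groups it stood at 2017, 1656, 1595, 1694 and 1418 CPM in WT-C22 and 2897, 2706, 3539, 2652 and 3056 CPM in C22. The C22 and WT-C22 libraries were far apart, whereas the highest WT-C3 library (12 weeks) came close to the lowest C3 library (9 weeks). Apod rose by a log2 of 0.82 ± 0.12 (SE, n = 5 per group, adjusted p = 0.000256) in C22 and 0.48 ± 0.13 (SE, n = 5 per group, adjusted p = 0.0194) in C3, and the call in C3 was lost without the C3 library of 5 weeks (adjusted p = 0.0522). Apoe stood at 910.5, 1003, 1178, 1044 and 1172 CPM in WT-C3 and 1182, 1635, 1457, 1932 and 1504 CPM in C3, where each C3 library was above each WT-C3 library. In C22 (1468 to 1949 CPM) and WT-C22 (983 to 1859 CPM) the libraries overlapped. The log2 fold change of Apoe was 0.53 ± 0.13 (SE, n = 5 per group, adjusted p = 0.011) in C3 and 0.28 ± 0.15 (SE, n = 5 per group, adjusted p = 0.153) in C22, and the changes did not differ by the test (difference -0.27 ± 0.20 (SE, n = 5 per group, adjusted p = 0.452)). Without the WT-C22 library of 12 weeks Apoe passed in C22 too (0.40, adjusted p = 0.0367), as it did with scaling by library size alone (adjusted p = 0.0337).

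Lpl encodes lipoprotein lipase, which frees fatty acids from circulating lipoproteins and is abundant in adipose tissue. It stood at 498, 582, 895, 533 and 505 CPM in WT-C3 and 163, 288, 392, 353 and 525 CPM in C3. In WT-C22 it stood at 675, 919, 1045, 1427 and 2003 CPM and in C22 at 519, 689.6, 732, 1828 and 755 CPM. In each of the 5 groups Lpl had the widest spread of the 10 genes on the log2 scale, and C3 at 12 weeks lay above WT-C3 at 3 and at 12 weeks. The log2 fold change was -0.81 ± 0.27 (SE, n = 5 per group, adjusted p = 0.0469) in C3 and -0.43 ± 0.36 (SE, n = 5 per group, adjusted p = 0.357) in C22. The call in C3 was lost in 9 of 10 fits that left out 1 library, with adjusted p from 0.0502 to 0.116, and held only without the C3 library of 12 weeks. Without the C22 library of 9 weeks, the highest of C22, Lpl was lower in C22 as well (-0.85, adjusted p = 0.0305).

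Markers of fat cells moved with Lpl. The summed level of the 6 adipocyte markers (Adipoq, Plin1, Cfd, Cidec, Lep and Retn, all detected in every library) was 1154 to 2536 CPM in WT-C3, 335 to 2681 in C3, 627 to 4004 in C3 c-Jun KO, 1342 to 4599 in WT-C22 and 1269.7 to 3524 in C22. The C22 library of 9 weeks held the highest sum of C22, 3524 CPM, and the WT-C3 library of 7 weeks the highest of WT-C3, 2536 CPM. Over the 25 libraries the genes most like Lpl were Plbd1 (r = 0.967), Car3 (r = 0.966) and Dgat2 (r = 0.963), the last the enzyme of the final step of triglyceride synthesis. None of the 6 markers passed the test in C3 or C22. The part of fat cells in the Lpl values was not tested.

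**Figure D4:**
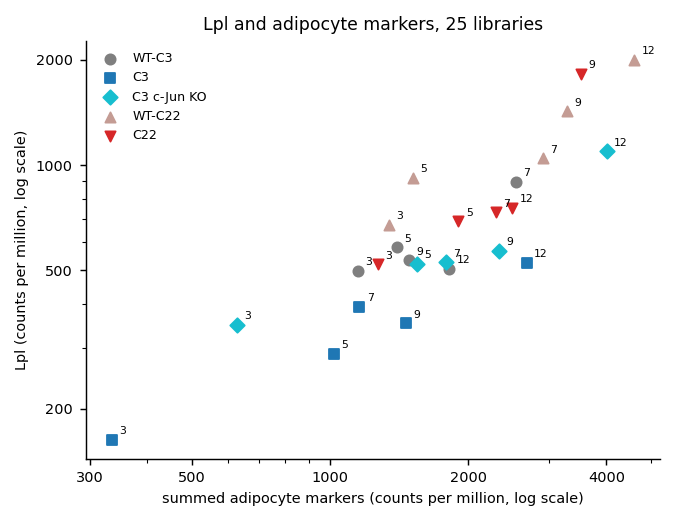
Lpl (CPM) against the summed level of 6 adipocyte markers (CPM) in each of the 25 libraries, both on log scales, with the age in weeks beside each point. Libraries with high marker sums, such as WT-C22 at 12 weeks and C22 at 9 weeks, also had high Lpl, and C3 at 3 weeks was lowest on both axes.

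Lrp1 encodes a large endocytic receptor that takes up APOE-bearing particles and myelin debris. It measured 833, 743, 1025, 952 and 1032 CPM in WT-C22 and 568, 566, 738, 748 and 751 CPM in C22. In the C57BL/6J groups it measured 677, 635, 735, 612 and 675 CPM in WT-C3 and 638, 745, 729, 869.6 and 763 CPM in C3. In the FVB/NRJ groups the WT-C22 library of 5 weeks lay among the higher C22 libraries and the other 4 lay above them, and in the C57BL/6J groups C3 and WT-C3 overlapped. Lrp1 fell in C22 (-0.45 ± 0.13 (SE, n = 5 per group, adjusted p = 0.0142)) and did not pass in C3 (0.16 ± 0.09 (SE, n = 5 per group, adjusted p = 0.223)). With scaling by library size alone the C22 value was -0.28 (adjusted p = 0.12).

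Npc2 and Npc1 encode the soluble and the membrane-bound protein that hand cholesterol out of the late endosome and lysosome, and only the first fell in both models. Npc2 stood at 419.9, 371, 382, 395 and 328 CPM in WT-C3 and 192, 219, 221, 235 and 222 CPM in C3. It stood at 443, 380.2, 343, 339.6 and 374 CPM in WT-C22 and 217, 226, 202, 235 and 200.4 CPM in C22. The 10 transgenic libraries filled a range of 192 to 235 CPM, below all 10 control libraries. The log2 fold change was -0.80 ± 0.08 (SE, n = 5 per group, adjusted p = 0.000101) in C3 and -0.80 ± 0.08 (SE, n = 5 per group, adjusted p = 2.31e-05) in C22, or 0.573 and 0.573 of the control level, and it kept its call in every alternative and with any library left out. The difference between the 2 changes was -0.02 ± 0.12 (SE, n = 5 per group, adjusted p = 0.963). Npc1 measured 169.9, 182, 160.1, 172 and 159 CPM in WT-C3 and 185, 179, 170.2, 170.0 and 157 CPM in C3, and the log2 fold change was 0.03 ± 0.07 (SE, n = 5 per group, adjusted p = 0.821). In WT-C22 it measured 228, 230.2, 221, 234 and 203 CPM and in C22 182, 199, 204, 172 and 194 CPM, where the groups overlapped by a single pair, WT-C22 at 12 weeks and C22 at 7 weeks. Npc1 fell by a small step in C22 (-0.23 ± 0.07 (SE, n = 5 per group, adjusted p = 0.0184)), a call lost with scaling by library size alone (-0.06, adjusted p = 0.444) and without the filter on low counts (adjusted p = 0.0612).

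Soat1 encodes the enzyme that esterifies cholesterol for storage in lipid droplets. Its level was 30.5, 29.1, 29.3, 28.7 and 28.7 CPM in WT-C3 and 37.7, 38.9, 38.4, 32.7 and 31.3 CPM in C3. In the other strain it was 35.6, 36.4, 34.5, 33.8 and 34.7 CPM in WT-C22 and 51.3, 50.5, 48.4, 40.0 and 40.4 CPM in C22. All libraries of each model lay above all of its control, and in each model the values of 9 and 12 weeks were below those of 3 to 7 weeks. Soat1 rose by a log2 of 0.30 ± 0.08 (SE, n = 5 per group, adjusted p = 0.0159) in C3 and 0.39 ± 0.08 (SE, n = 5 per group, adjusted p = 0.00245) in C22. The call in C3 was lost without the C3 library of 5 weeks (adjusted p = 0.0504) or of 7 weeks (adjusted p = 0.0506). Soat2, the isoform of liver and intestine, did not pass the filter on low counts.

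Whether a change depended on the model was tested as the difference between the change in C22 and the change in C3, which uses 20 libraries. Lrp1 and Npc1 changed more negatively in C22, and the other 8 genes did not pass. Over all genes 12.1% passed, 4.75% higher and 7.31% lower in C22. The difference was -0.63 ± 0.16 (SE, n = 5 per group, adjusted p = 0.0115) for Lrp1, and it was -0.52 with scaling by library size alone (adjusted p = 0.0555). For Npc1 it was -0.28 ± 0.09 (SE, n = 5 per group, adjusted p = 0.0487), a call lost in 5 of 7 other settings (adjusted p from 0.0709 to 0.326) and in 16 of 20 fits that left out 1 library. Both genes also differed between the controls, which enter this difference.

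The controls of the 2 strains differed in 4 of the 10 genes, all higher in WT-C22 than in WT-C3, where 21.7% of all genes passed, 9.99% higher and 11.7% lower. Lpl differed by a log2 of 1.01 ± 0.27 (SE, n = 5 per group, adjusted p = 0.0193), Lrp1 by 0.46 ± 0.11 (adjusted p = 0.00849), Npc1 by 0.40 ± 0.07 (adjusted p = 0.0012) and Soat1 by 0.26 ± 0.05 (adjusted p = 0.00497). For Lrp1, Npc1 and Soat1 all WT-C22 libraries lay above all WT-C3 libraries, where 17% of all genes were apart, 7.6% higher and 9.35% lower. The Lpl call was lost without the WT-C3 library of 12 weeks (adjusted p = 0.0506), and 3 of the 6 adipocyte markers were also higher in WT-C22. Npc2 stood at 379 ± 34.0 and 376 ± 41.6 CPM in WT-C3 and WT-C22 (SD, n = 5), with a log2 difference of -0.01 ± 0.09 (SE, n = 5 per group, adjusted p = 0.946). Abca1 (0.44 ± 0.17, adjusted p = 0.0896) and Apoe (0.43 ± 0.15, adjusted p = 0.0617) did not pass. With age as a replicate block in edgeR both passed (adjusted p = 0.00516 and 0.0232), where 1775 of all 13993 genes were higher and 1946 lower. Apoe also passed with DESeq2 (adjusted p = 0.019), where 1665 of 13939 genes were higher and 1819 lower. In edgeR without the filter on low counts it passed too (adjusted p = 0.0423), where 1907 of 31062 genes were higher and 1936 lower. These control libraries are the same that enter the comparisons with C3 and C22. The C22 levels of Lrp1 (566 to 751 CPM) overlapped those of WT-C3 (612 to 735 CPM).

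In C3 mice without c-Jun in Schwann cells none of the 10 genes passed against C3 in the main edgeR fit. Of all genes 0.55% passed, 0.222% higher and 0.329% lower. At an unadjusted p under 0.05 stood 3 of the 10 genes, Abca1, Apod and Lpl, and DESeq2 placed 4 there. The share of all genes at that level was not counted, so these counts have no background beside them. DESeq2 called 1, Abca1, where 118 of 13977 genes were higher and 132 lower. The C3 libraries here are those already compared with WT-C3. Abca1 stood at 120.1, 189, 196, 163 and 183 CPM in C3 c-Jun KO, close to C3 at 3 weeks and above all 5 C3 libraries at the later 4 ages. Its log2 fold change was 0.70 ± 0.14 (SE, n = 5 per group, adjusted p = 0.0646). It passed with DESeq2 (adjusted p = 0.000463), without the filter on low counts (adjusted p = 0.0233) and in 1 fit of all 25 libraries (adjusted p = 0.0164). Without the C3 c-Jun KO library of 3 weeks it was 0.80 (adjusted p = 0.00631) and without the C3 library of 3 weeks 0.77 (adjusted p = 0.0405).

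Lpl was higher in C3 c-Jun KO at each of the 5 ages, at 349, 522, 526, 567 and 1096 CPM, and the groups overlapped. Its log2 fold change was 0.84 ± 0.33 (SE, n = 5 per group, adjusted p = 0.536). Libraries of the same age resembled each other in this comparison, and with age as a replicate block Lpl passed, at 0.83 ± 0.10 (adjusted p = 0.00436), and no other of the 10 genes did, where 1.95% of all genes passed. Beside it the adipocyte marker sum was higher in C3 c-Jun KO than in C3 at all 5 ages, for example 4004 against 2681 CPM at 12 weeks. Apod stood at 3473, 3405, 3436, 3264 and 3564 CPM, above all C3 libraries, where 2.27% of all genes were apart, 1.16% higher and 1.11% lower, with a log2 fold change of 0.23 ± 0.10 (SE, n = 5 per group, adjusted p = 0.583). Npc2 (211 to 258 CPM) and Soat1 (33.5 to 40.1 CPM) overlapped C3, with log2 fold changes of 0.09 ± 0.09 (SE, n = 5 per group, adjusted p = 0.877) and 0.07 ± 0.09 (SE, n = 5 per group, adjusted p = 0.912). Apoe reached 2704 CPM at 12 weeks, its highest of all libraries, and its log2 fold change was 0.34 ± 0.17 (SE, n = 5 per group, adjusted p = 0.701).

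Age was tested with a spline of 3 degrees of freedom per group in 1 fit of all 25 libraries. In WT-C22 1 of the 10 genes passed, Abca1 (adjusted p = 0.0369), where 2.86% of all genes passed. Its level was lowest at 3 and 5 weeks and the linear slope was a log2 of 0.09 ± 0.03 per week (SE, adjusted p = 0.0999), and the spline missed the threshold when C22 and WT-C22 were fitted alone (adjusted p = 0.0552). None of the 10 genes passed the spline in WT-C3, C3, C3 c-Jun KO or C22, where 0.693%, 2.27%, 3.38% and 0.752% of all genes did. By the linear slope Scarb1 fell with age in WT-C3 (-0.08 ± 0.02 per week, adjusted p = 0.0174), from 152 CPM at 3 weeks to 94.4 CPM at 12 weeks. Lpl rose in WT-C22 (0.17 ± 0.05 per week, adjusted p = 0.0469) and Apoe rose in C3 c-Jun KO (0.09 ± 0.02 per week, adjusted p = 0.0249). With 1 library of the group left out, this Lpl slope passed in no fit. The slopes of Scarb1 and Apoe then passed only without the library of 5, 7 or 9 weeks. With all libraries, the slope passed for 2.62% of all genes in WT-C3, 7.77% in WT-C22 and 5.97% in C3 c-Jun KO, and for 5.96% in C3 and 0.784% in C22, where none of the 10 genes passed. No time course of the 10 genes differed between a model and its control in edgeR, by the spline (passed by 0.0261% of all genes in C3 and 0.0523% in C22) or the slope (0.0196% and 0.464%).

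Of 76 other genes of cholesterol and lipoprotein handling, listed by role, 63 passed the filter. In C3 8 of them rose and 7 fell, or 23.8% beside 23.9% of all genes. In C22 11 rose and 19 fell, or 17.5% and 30.2% beside 21.9% and 20.5% of all genes. The C3 share was thus near the background. The median log2 fold change over the 63 was -0.03 in C3 and -0.18 in C22. Among 7 further ABC transporters, 1 fell in C3, and 1 rose and 4 fell in C22. Abca5, a lysosomal transporter, fell in both (-0.93 ± 0.11 (SE, adjusted p = 0.000268) in C3 and -1.21 ± 0.11 (SE, adjusted p = 8.16e-06) in C22), and Abcg4, a relative of Abcg1, rose in C22 (0.70 ± 0.13 (SE, adjusted p = 0.00114)). Of the 10 other apolipoproteins and lipoprotein enzymes, 4 passed the filter (Clu, Pltp, Apoc1 and Lcat) and none changed in any comparison in the main edgeR fits. The genes of the liver-made apolipoproteins Apoa1, Apoa2 and Apob did not exceed 0.531 CPM in any library.

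Among 12 tested lipoprotein receptors and their partners, 2 rose and 2 fell in C3, and 2 rose and 4 fell in C22. The filter asks for at least 7 libraries, so a gene detected in 1 group of 5 cannot pass it. Lrp2, left out in this way and named after its values were seen, stood at 0 CPM in each WT-C22 library. In C22 it stood at 3.27 to 8.91 CPM and in the other groups at 0.467 CPM at most, and it was not among the tested genes. Mylip, a ubiquitin ligase that limits lipoprotein uptake, rose in both models (0.44 ± 0.11 (SE, adjusted p = 0.0146) in C3 and 0.61 ± 0.07 (SE, adjusted p = 7.12e-05) in C22), and Lrp4 rose by 0.37 in C3 and 0.38 in C22. Cd36, a fatty acid and lipoprotein scavenger receptor that fat cells express, fell in C3 (-0.78 ± 0.25 (SE, adjusted p = 0.0449)), a call lost in 11 other fits. Of the 6 tested lipases and partners none changed in C3, and Lipa, the lysosomal acid lipase, fell in C22 (-0.87 ± 0.08 (SE, adjusted p = 8.35e-06)).

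In the storage list of 11 tested genes 1 fell in C3, and 1 rose and 2 fell in C22. The fall of Dgat2 in C3 (-0.76 ± 0.26 (SE, adjusted p = 0.0491)) was lost in 10 other fits, while Nceh1, a cholesteryl ester hydrolase, rose in C22 (0.36 ± 0.10 (SE, adjusted p = 0.0103)). Clu, Pltp, Apoc1, Lcat and Nceh1 are named after their values were seen. The 16 genes of endosomal and contact-site sterol transport moved in both directions, with 5 higher and 3 lower in C3 and 6 higher and 5 lower in C22. Gramd1b and Gramd1a, which carry plasma membrane cholesterol to the endoplasmic reticulum, rose by 0.77 and 0.63 in C3 and by 1.16 and 0.48 in C22. Stard3, a late endosomal cholesterol carrier, rose by 0.34 in C3 and 0.45 in C22, and Mcoln1, a lysosomal ion channel, by 0.31 and 0.53. Gramd1c rose by 0.70 in C3 and 0.66 in C22, calls lost in 8 and 5 of 17 other fits. Stard4, a soluble sterol carrier, fell most, with a log2 fold change of -0.93 ± 0.15 (SE, adjusted p = 0.0016) in C3 and -1.87 ± 0.13 (SE, adjusted p = 9.04e-07) in C22, and Tmem97, an NPC1-binding protein, fell in both (-0.58 in C3 and -0.78 in C22). Osbpl5, a lipid carrier at membrane contacts, fell in C22 (-1.11 ± 0.08 (SE, adjusted p = 1.66e-06)) and did not pass in C3 (-0.09 ± 0.11 (SE, adjusted p = 0.579)). Of 7 genes of oxysterols and their receptors 1 rose in C3, and 1 rose and 3 fell in C22, where Cyp46a1, the enzyme that makes 24-hydroxycholesterol, measured -1.07 ± 0.15 (SE, adjusted p = 0.000153). Nr1h3, which encodes an LXR receptor, was among the 3 that fell in C22 (-0.54 ± 0.16 (SE, adjusted p = 0.0154), a call lost with scaling by library size alone, adjusted p = 0.0921) and measured 0.04 ± 0.12 (SE, adjusted p = 0.821) in C3, and it is named after its values were seen.

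**Figure D5:**
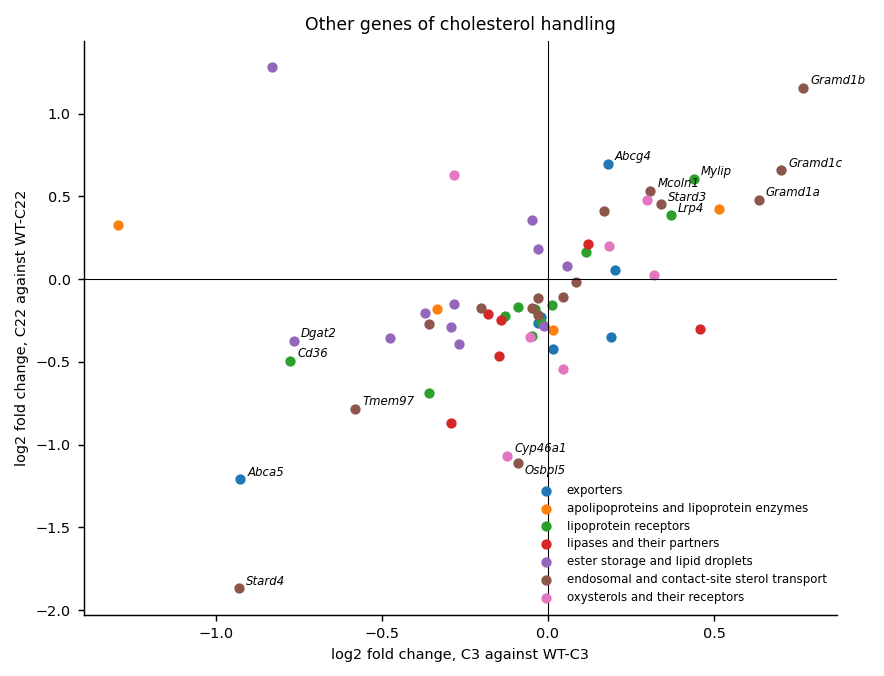
Log2 fold change of 62 of the 63 other tested genes in C3 against WT-C3 (x axis) and C22 against WT-C22 (y axis), coloured by list, with the genes of the naming rule labelled. Stard4 and Abca5 lie at the lower left and Gramd1b at the upper right.

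The changes of 8 of the 63 genes differed between the models, all more negative in C22. This share of 12.7% is near the 12.1% of all genes, of which more were lower (7.31%) than higher (4.75%). The 8 included Osbpl5 (-1.04 ± 0.14 (SE, adjusted p = 4.17e-05)), Cyp46a1 (-0.96), Stard4 (-0.96) and Lipa (-0.59). In C3 c-Jun KO none of the 63 passed against C3 in the main edgeR fit. DESeq2 called 3, where 118 of 13977 genes were higher and 132 lower. With age as a replicate block 9 were higher, where 164 of 13993 genes were higher and 109 lower. At an unadjusted p under 0.05 stood 13, and the share of all genes at that level was not counted. Between the controls 19 were higher in WT-C22 and 4 lower, or 30.2% and 6.35% beside 9.99% and 11.7% of all genes. Of the 19, 6 were storage genes and 3 were lipase genes. Those with a mean of at least 5 CPM were led by Gpihbp1, which anchors lipoprotein lipase to the capillary wall (1.36 ± 0.18 (SE, adjusted p = 0.000172)), and by the fat cell genes Dgat2 (1.28), Lipe (1.27), Cidec (1.26) and Ces1d (1.11), beside the higher adipocyte markers. Of these higher markers, Cidec and Plin1 are also on the storage list and are counted in both. The differences of the storage genes Cidea (2.50) and Plin5 (1.85), which averaged under 5 CPM and are named after their values were seen, were larger. The calls of Dgat2, Cidec and Ces1d were each lost in 6 to 8 other fits. The exporters gave 3 of the 19, the receptors 2, the transport genes 2 and the oxysterol genes 3. Cyp7b1 (-0.59), Scarb2 (-0.44) and Lrp6 (-0.36) were lower in WT-C22.

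Other cell types of the nerve also differed between the groups. The summed level of 6 myelinating Schwann cell markers was 11898 to 16758 CPM in C22 against 22086 to 38613 in WT-C22, and 20012 to 27651 in C3 against 25525 to 34801 in WT-C3, so that C3 overlapped its control and C22 did not. Much of this sum was Mbp alone, with means of 18389 CPM in WT-C22, 8410 in C22, 18371 in WT-C3 and 14205 in C3. Of the 6, 1 was higher and 3 lower in C22, and 2 were higher and 1 lower in C3. Markers of repair and immature Schwann cells were higher in C3 for all 6 that were tested, with sums of 305 to 422 against 127 to 165 CPM, and 3 of 6 were higher and 2 lower in C22. In C3 c-Jun KO this sum was 202 to 239.9 CPM, below all C3 libraries, with 2 of the 6 lower. Perineurial markers fell in C22 (4 of 4) and in C3 (3 of 4), and 4 of 6 endothelial markers fell in C22, beside the falls of Npc2, Lrp1, Scarb1 and Npc1. Macrophage markers, of a cell rich in Apoe, Abca1, Npc2 and Lpl, overlapped between the groups in their sum (454 to 582 CPM in C3 and 409 to 717 in WT-C3, 409 to 619.8 in C22 and 432 to 670.1 in WT-C22). Of 12 macrophage markers 1 rose in C3, and 2 rose and 1 fell in C22, and Cx3cr1 rose in both (1.05 and 1.42). Of 6 fibroblast markers none changed in C3 and 1 fell in C22, and of the markers of skeletal muscle and of blood none passed in either model. The part of these cell types in the values of the 10 genes was not tested.

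The 10 genes did not follow 1 pattern over the 25 libraries, which share groups, strain and age. Abca1 ran against Npc2 (Pearson r = -0.878 over log2 CPM) and with Apoe (0.767), Apod (0.765) and Soat1 (0.721), while its r with Abcg1 was 0.268 and with Lpl -0.0184. Among 13992 other genes the levels most like Abca1 were those of Pde1c (r = 0.914), Cxcl14 (r = 0.908) and Tyrp1 (r = 0.897). Npc2 was most like Arl6ip1 (r = 0.955), Tmem50b (r = 0.952) and Pigq (r = 0.940), and Soat1 most like Osbpl3 (r = 0.931), Tnfrsf21 (r = 0.925) and Apeh (r = 0.921). Apod was most like 4632428C04Rik (r = 0.909), Adam23 (r = 0.900) and Ppp2r2c (r = 0.899), and Apoe most like Plppr3 (r = 0.873), Ltbp3 (r = 0.868) and Srebf1 (r = 0.853), the last encoding a regulator of lipid synthesis. The most alike gene was for Abcg1 Crtac1 (r = 0.815), for Scarb1 Sbk1 (r = 0.841), for Lrp1 Slc12a7 (r = 0.872) and for Npc1 Smad2 (r = 0.890). These correlations are given as descriptions, without a test.

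In GRCm39 with the Ensembl genes of the table the 10 genes lie as follows. The exporters are Abca1 (ENSMUSG00000015243, chr4:53030787-53159900) and Abcg1 (ENSMUSG00000024030, chr17:31276649-31336969). The carriers are Apoe (ENSMUSG00000002985, chr7:19430034-19434947) and Apod (ENSMUSG00000022548, chr16:31115010-31135355). The lipase and the receptors are Lpl (ENSMUSG00000015568, chr8:69284603-69360100), Lrp1 (ENSMUSG00000040249, chr10:127374012-127457017) and Scarb1 (ENSMUSG00000037936, chr5:125353547-125418176). The endosomal pair is Npc1 (ENSMUSG00000024413, chr18:12322749-12369550) and Npc2 (ENSMUSG00000021242, chr12:84801334-84820617), and the storage enzyme is Soat1 (ENSMUSG00000026600, chr1:156252095-156303864).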

How the data were processed

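Per the paper, the authors clipped adapters (cutadapt 2.10), aligned reads with STAR 2.7.5a to GRCm39 with the human transgene locus added, removed duplicates by molecular identifier (UMI-tools 1.1.1) and counted fragments per Ensembl gene with HTSeq 0.12.4. They deposited raw counts, from poly(A)-selected, directional libraries, without normalization. Fragments on more than 1 gene (1.78% to 2.04%) were not assigned to a gene. The table holds 56956 genes (15 human) and 5 summary lines, which were left out. Symbols matched 56323 of 56941 mouse genes, and all 10 members.

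Tests used edgeR 4.0.16 in R 4.3.3 (TMM among the libraries compared, quasi-likelihood test, group as the only term, Benjamini-Hochberg adjustment over all genes tested, threshold 0.05). The 13993 genes with log2 CPM above 1 in at least 7 of 25 libraries were kept. Printed CPM values use 1 TMM scaling over all 25 libraries. Log2 CPM has a prior count of 2. Age was tested with a natural spline of 3 degrees of freedom (15298 genes). The steps were checked on simulated counts. DESeq2 1.42.0 (with its Wald and likelihood ratio tests), median-ratio factors, library size only, no filter, filterByExpr, 1 fit of all 25 libraries, a replicate block by age and leaving out each library were the alternatives. The correlation of the deviations of same-age libraries was above 0.1 at all 5 ages only for C3 c-Jun KO against C3 (0.438, 0.123, 0.347, 0.264 and 0.615), so the block is given there. Between the controls it was also positive at each age (0.342, 0.653, 0.1485, 0.536 and 0.0458), and the calls that the block added are given there too. No pair of libraries held identical counts. RefSeq promoter windows come from a table of GRCm38.p6 and were located in GRCm39 by exact match. P-values measure the spread between pools of different ages.

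The 10 genes, the lists of other genes and markers, and the tests were chosen with earlier results of these data known. Of the other pathway genes, the text names per comparison the 5 largest rises and falls past the threshold with a mean of at least 5 CPM, except 1 gene not reported here (as 1 myelin marker, left out of its list), and for each of the 10 genes up to 3 genes with the highest correlation.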

Additional observations from a re-analysis of the deposited data

Results flagged for a closer look

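In 6 of the 50 groups of 5 libraries (10 genes in 5 groups) 1 library stood apart from the other 4 by Dixon's criterion, where chance gives about 1 in 20 groups. Npc1 in C3 c-Jun KO was 216 CPM at 3 weeks, with the next library at 173 CPM, and Scarb1 in the same library was 134 CPM, with the next at 109 CPM. Lrp1 in C3 c-Jun KO was 842 CPM at 12 weeks, with the next at 678 CPM. Lpl in WT-C3 was 895 CPM at 7 weeks (next 582 CPM) and in C22 1828 CPM at 9 weeks (next 755 CPM), and the adipocyte marker sums of these libraries were the highest of their groups. Scarb1 in C22 was 127 CPM at 9 weeks (next 113 CPM), in the same library as the high Lpl.

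The change in C22 minus the change in C3 passed the test for Lrp1, at -0.63 on the log2 scale (adjusted p = 0.0115), and for Npc1, at -0.28 (adjusted p = 0.0487), both by edgeR's quasi-likelihood test with n = 5 libraries per group. Both genes were higher in WT-C22 than in WT-C3, and strain and copy number cannot be told apart.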

How the results depend on the processing

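Abca1, Abcg1, Apod, Npc2 and Soat1 in C22, Abca1, Apoe and Npc2 in C3, and Lrp1, Npc1 and Soat1 between the controls kept their direction and call under all alternatives and with any library left out. Counts of the 10 genes are given as higher and lower, and only the larger moves between settings are listed. In C3 against WT-C3 (4 and 2) 1 was lower with library size only and in 1 fit of all 25 libraries. In C22 against WT-C22 (4 and 4) 1 was lower with library size only. For the difference between the models (0 and 2) 1 was higher with library size only, DESeq2 and the replicate block, and 1 was lower with median-ratio factors, no filter, filterByExpr and all 25 libraries, and 0 with library size only. In C3 c-Jun KO against C3 (0 and 0) 1 was higher with DESeq2, no filter, all 25 libraries (Abca1) and the block (Lpl). Between the controls (4 and 0) 1 was lower with all 25 libraries, and the genes added to the 4 higher ones are named below. Of the 63 other genes, 11 were lower in C3 with the block (7 without), 19 higher and 8 lower in C22 with library size only (11 and 19), 3 higher in the difference with library size only, 1 with DESeq2, no filter and filterByExpr and 2 with all 25 libraries and the block (0), 3 higher in C3 c-Jun KO with DESeq2 and 9 with the block (0), and 9 lower between the controls with the block (4). Age effects were called for 1 gene in WT-C3 with 2 degrees of freedom, the linear slope and DESeq2 (0), for 1 with the linear slope and 3 with DESeq2 in C3 c-Jun KO (0), for 2 with DESeq2 and 0 with C22 and WT-C22 alone in WT-C22 (1), and for 1 with DESeq2 in C22 (0). With 1 library left out, the counts of the 10 genes ran from 2 to 4 higher and 1 to 2 lower in C3, 4 to 5 and 4 to 5 in C22, 0 to 1 and 1 to 2 in the difference, 0 to 1 higher and 0 lower in C3 c-Jun KO, and 3 to 5 and 0 to 1 between the controls. Those of the other genes ran from 7 to 10 and 5 to 9 in C3, 10 to 15 and 12 to 22 in C22, 0 to 2 and 6 to 10 in the difference, and 13 to 20 and 3 to 8 between the controls, and age effects from 0 to 1 in WT-C3, C3 c-Jun KO, WT-C22 and C22. Signs turned for values near 0. Npc2 in the difference was 0.0906 with library size only, 0.0130 without a filter, 0.00997 with filterByExpr, 0.00108 with all 25 libraries and -0.0603 to 0.0667 with 1 library left out, and between the controls 0.0222 without a filter and -0.0761 to 0.0263 with 1 left out. With 1 left out Scarb1 ran from -0.18 to 0.000159 in C3 and -0.0530 to 0.0420 in C3 c-Jun KO, Npc1 from -0.0299 to 0.0711 there and Lpl from -0.0570 to 0.62 in the difference. Library size only moved the share of higher genes among all calls from 52.1% to 71.4% in C3, 51.7% to 76% in C22 and 39.4% to 63.1% in the difference, and the block moved it from 40.3% to 60.1% in C3 c-Jun KO. In the other comparisons the correlation of same-age libraries was not above 0.1 at all ages. There the block added Abcg1 in the difference (adjusted p = 0.0218) and Abca1 and Apoe between the controls (adjusted p = 0.00516 and 0.0232) and changed no other call of the 10 genes. Between the controls, Abca1, Apoe, Apod and Scarb1 passed in some fits with 1 library left out, and Abca1 and Apod with all 25 libraries. Apoe also passed there with DESeq2 (adjusted p = 0.019) and in edgeR without the filter on low counts (adjusted p = 0.0423). The causes were not tested. With 1 pool per group and age, no difference at a single age can be tested.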
